A study of Mus musculus with 6 samples.

Results

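The Schlafen genes of the mouse were followed in renal CD11B+ cells after ischemic injury. The members are the rows of the count table whose symbol is Slfn1, Slfn2, Slfn3, Slfn4, Slfn5, Slfn8 or Slfn9. All 7 were found among 46603 genes, and all 7 passed the filter on low counts that left 15440 genes for testing. Libraries came from male mice aged 10 to 12 weeks, killed on day 3 after ischemia-reperfusion injury (IRI-AKI). Both renal pedicles had been clamped for 28 minutes. There were 3 libraries per genotype, and each was taken as 1 mouse, which the sample labels do not state. PTEC DN RAR mice carried PEPCK Cre and the Rosa26-LSL-RARaT403X allele, a Cre-activated, truncated retinoic acid receptor α that acts as a dominant negative. Cre- controls carried the same allele without PEPCK Cre, so the allele and the surgery were common to every library. PEPCK Cre recombines in proximal tubular epithelial cells (PTECs), so the transgene was aimed at the tubule and not at the leukocytes that were sequenced. The Cre line had a mixed strain background that included the inbred strain of the receptor allele. For PTEC DN RAR mice the paper states that this allele was bred to homozygosity. The strain at the Schlafen locus of each mouse was not analysed here.

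Schlafen proteins are a family of growth-regulatory and antiviral proteins, many of which are induced by type I interferon. In the mouse they fall into short forms (Slfn1 and Slfn2), forms of intermediate length (Slfn3 and Slfn4) and long forms. The long forms, among them Slfn5, Slfn8, Slfn9 and the pseudogene Slfn10-ps, have a helicase-like region at the carboxyl end. Myeloid cells and lymphocytes are their best studied site of expression, and in macrophages several members respond to interferon and to Toll-like receptor ligands.

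The 7 members lie in 1 cluster on chromosome 11 of GRCm38, with Slfn10-ps and small pseudogenes among them, across 263.8 kb from base 82951349 to base 83215154. RefSeq promoter sequences (GRCm38.p6) matched all 7. The core letters of the interferon-stimulated response element, which are 2 copies of GAAA with any 2 bases between them, on either strand, occurred in the promoters (250 bases before to 50 bases after the gene start) of Slfn5, Slfn8 and Slfn9, that is in 3 of 7 members, and in 3.99% of the 27025 genes with a promoter in the table. Of the 18 listed interferon-stimulated genes with a promoter in the table, 11 held it. The letters of the gamma-activated site, TTCNNNGAA on either strand, occurred in 0 of 7 members and in 9.55% of genes. The motifs were searched separately. The 250 bases before the start are shown for the 3 members that hold the first motif, with its letters in capitals, and for Slfn4, the member with the lowest log2 fold change over all 6 libraries, which does not hold it. Each runs 5′ to 3′ on the strand of its gene.
Slfn5 (chr11:82951852-82952101, plus strand): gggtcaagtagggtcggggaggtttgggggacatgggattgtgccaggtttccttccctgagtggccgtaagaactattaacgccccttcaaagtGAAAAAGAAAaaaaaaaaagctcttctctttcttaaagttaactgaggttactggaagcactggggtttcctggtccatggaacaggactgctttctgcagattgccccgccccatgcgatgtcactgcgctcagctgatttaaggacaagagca
Slfn8 (chr11:83020811-83021060, minus strand): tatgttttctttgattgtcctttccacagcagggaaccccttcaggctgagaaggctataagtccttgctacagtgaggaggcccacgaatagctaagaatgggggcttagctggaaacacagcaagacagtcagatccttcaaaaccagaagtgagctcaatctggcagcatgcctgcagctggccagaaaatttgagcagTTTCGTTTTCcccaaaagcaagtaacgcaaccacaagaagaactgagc
Slfn9 (chr11:82991831-82992080, minus strand): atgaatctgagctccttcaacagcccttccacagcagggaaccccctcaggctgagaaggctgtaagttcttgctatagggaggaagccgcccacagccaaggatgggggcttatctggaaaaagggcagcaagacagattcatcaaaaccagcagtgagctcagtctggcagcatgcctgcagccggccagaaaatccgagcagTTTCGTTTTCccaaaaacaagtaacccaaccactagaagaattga
Slfn4 (chr11:83174936-83175185, plus strand): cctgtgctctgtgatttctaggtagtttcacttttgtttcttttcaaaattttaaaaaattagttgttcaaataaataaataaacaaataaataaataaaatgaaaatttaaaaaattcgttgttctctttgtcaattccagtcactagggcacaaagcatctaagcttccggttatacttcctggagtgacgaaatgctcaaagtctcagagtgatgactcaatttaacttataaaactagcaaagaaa
The stretches before Slfn8 and Slfn9 were 80.2% identical over a global alignment of 262 columns, and the motif letters sit 48 and 45 bases before the respective starts in the same surroundings. In Slfn5 the motif letters begin 155 bases before the start and run into a stretch of adenines, and this start, from RefSeq, lies inside the Slfn5 gene of GENCODE M21, which begins at base 82951349.

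The libraries held between 29318041 and 46517005 counts on genes, so that 3 counts correspond to 0.0645 to 0.102 CPM, the count relative to library size. Mitochondrial genes held 5.03% to 8.77% of counts in Cre- controls and 10.4% to 12.1% in PTEC DN RAR libraries. Itgam, the gene for CD11B, was present in every library, at 1737, 1959 and 1995 CPM in Cre- controls and 1366, 1303 and 980.3 CPM in PTEC DN RAR mice. Rara measured 45.4, 35.3 and 45.1 CPM against 30.8, 31.5 and 37.5 CPM, with no separate entry for the transgene. Of the 15440 genes tested, 2636 fell and 3640 rose with the PTEC DN RAR genotype (adjusted p under 0.05 in edgeR's quasi-likelihood test, Benjamini-Hochberg over all genes tested, as for every edgeR value given here). With 26 pan-leukocyte reference genes as the basis of scaling, and not TMM (trimmed mean of M values), the split was 804 lower and 4633 higher, and the median log2 fold change over all genes was 0.22 in place of 0.04.

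All 7 Schlafen members were lower in PTEC DN RAR mice. Each passed the test over all genes, where 17.1% of genes were called lower. In each of the 7 the highest PTEC DN RAR library was under the lowest Cre- control, which held for 24.2% of all genes tested, and 53.4% of all genes had groups that did not overlap in either direction. Slfn1, Slfn2, Slfn3, Slfn4 and Slfn9 were at least 2-fold lower, which together with an adjusted p under 0.05 held for 2.14% of the genes tested. The median log2 fold change of the members was -1.07, against 0.04 over all genes. Since the members were chosen with earlier results of these libraries known, these counts are a description and not an independent test of the family. Summed over the 7 members, Cre- control libraries held 1098, 983.7 and 907.3 CPM and PTEC DN RAR libraries 373.3, 520.5 and 630.6 CPM, a ratio of means of 0.51. In bulk RNA, fewer cells of a type that expresses these genes and less Schlafen RNA per cell cannot be told apart.

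**Figure D1:**
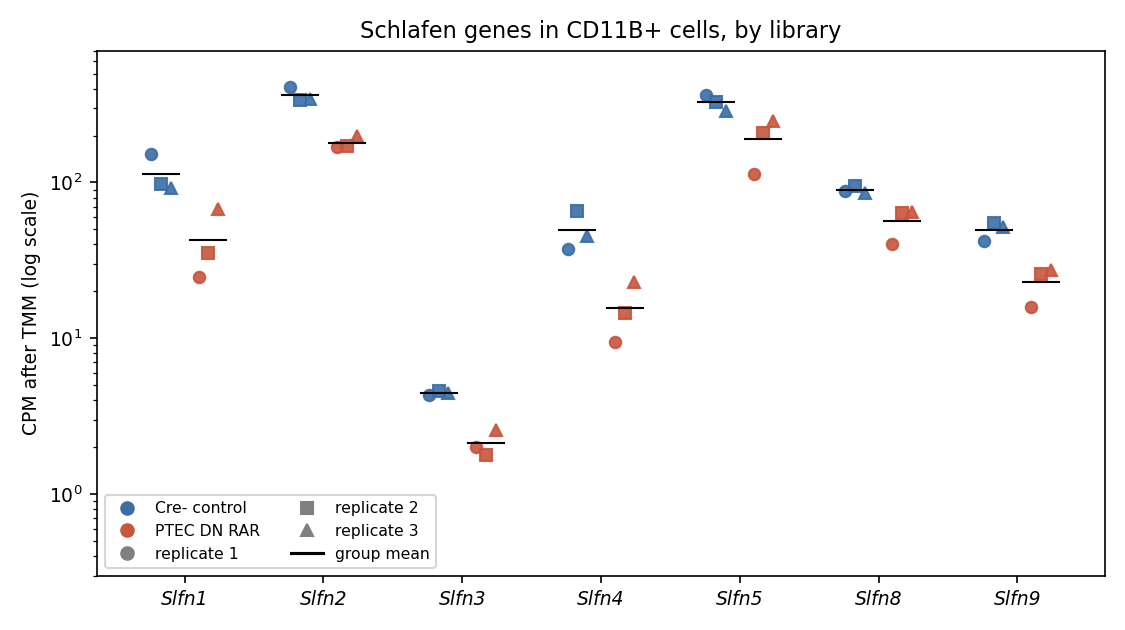
CPM after TMM (log scale) of the 7 Schlafen members in each library, blue for Cre- controls and red for PTEC DN RAR mice, with the shape of the point giving the replicate and a bar the mean of 3 mice. In every gene the 3 red points lie below the 3 blue ones, and PTEC DN RAR replicate 3 is the highest red point.

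Both intermediate forms, Slfn4 and Slfn3, fell. Slfn4 (ENSMUSG00000000204, chromosome 11 from 83175186 to 83190216) is a myeloid member known from monocytes, macrophages and myeloid-derived suppressor cells. Its level was 37.6, 65.4 and 45.3 CPM in Cre- controls and 9.49, 14.5 and 22.9 CPM in PTEC DN RAR mice. The groups did not overlap, although PTEC DN RAR replicate 3 stood 2.42 times above replicate 1. The log2 fold change was -1.66 (SE 0.31, adjusted p = 0.00399 by edgeR), or 3.16-fold lower. This was the lowest value of the family, but it lay within 1 standard error of that of Slfn1, and without Cre- control replicate 2 the order turned, with -1.45 for Slfn4 and -1.56 for Slfn1. Slfn3 (ENSMUSG00000018986, from 83191330 to 83215154), the neighbor of Slfn4 and a member studied in T cells and in the differentiation of intestinal epithelium, was the least abundant. It measured 4.33, 4.60 and 4.47 CPM in Cre- controls against 2.01, 1.79 and 2.59 CPM in PTEC DN RAR mice. These are between 76 and 169 counts per library. The control values were close together, and the log2 fold change was -1.07 (SE 0.20, adjusted p = 0.00394 by edgeR).

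The short forms Slfn1 and Slfn2 both fell, with different spreads. Slfn2 (ENSMUSG00000072620, from 83065112 to 83070678), which keeps T cells and monocytes in a quiescent state, had the highest level of the members per kilobase of exon in both genotypes. In CPM its level was 409.8, 338.1 and 340.7 CPM in Cre- controls and 167.9, 172.3 and 197.6 CPM in PTEC DN RAR mice. The libraries within each genotype were close, so Slfn2 had the smallest standard error of the 7, with a log2 fold change of -1.02 (SE 0.11, adjusted p = 0.000409 by edgeR). Slfn1 (ENSMUSG00000078763, from 83116849 to 83122670), the founding member, slows the growth of thymocytes that express it. It measured 151.6, 98.3 and 92.2 CPM in Cre- controls and 24.7, 35.4 and 67.5 CPM in PTEC DN RAR mice. Within the PTEC DN RAR group replicate 3 was 2.73 times replicate 1, the widest range of any member, and the log2 fold change was -1.42 (SE 0.34, adjusted p = 0.0116 by edgeR). Of 8 T cell markers, Cd3d and Cd3e were under the filter on low counts, and Cd3g, Cd8a, Trac, Lck and Cd5 were at 1.55 CPM or less in every library. Cd4, which macrophages and dendritic cells can also express, was at 41.5 to 69.4 CPM in Cre- controls and 82.5 to 107.3 CPM in PTEC DN RAR mice. Cd4, Trac and Cd5 were higher in PTEC DN RAR mice by edgeR.

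The 3 long forms among the members, Slfn5, Slfn8 and Slfn9, all fell. Slfn5 (ENSMUSG00000054404, from 82951349 to 82964840) encodes a nuclear protein linked to the control of interferon-responsive transcription. It measured 365.1, 327.9 and 287.3 CPM in Cre- controls and 113.3, 206.6 and 247.8 CPM in PTEC DN RAR mice. The lowest control was 1.16 times the highest PTEC DN RAR library, the narrowest gap of the family, and the log2 fold change was -0.79 (SE 0.25, adjusted p = 0.0322 by edgeR). Its call depended on single libraries. The adjusted p by edgeR was 0.0795 without Cre- control replicate 1, 0.0586 without Cre- control replicate 2 and 0.0558 without PTEC DN RAR replicate 2, while the log2 fold change stayed between -1.07 and -0.53 with each library left out. Scaled on pan-leukocyte reference genes it was -0.57 (adjusted p = 0.12 by edgeR).

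Slfn8 (ENSMUSG00000035208, from 83002158 to 83020810) and Slfn9 (ENSMUSG00000069793, from 82978390 to 82991830) are neighboring paralogs on the minus strand. Slfn8 measured 87.6, 94.6 and 85.7 CPM in Cre- controls and 40.2, 64.1 and 64.9 CPM in PTEC DN RAR mice. The log2 fold change of Slfn8 was -0.66 (SE 0.17, adjusted p = 0.0144 by edgeR), the smallest of the family, and under pan-leukocyte scaling it was -0.46 (adjusted p = 0.0927 by edgeR). For Slfn9 the values were 42.4, 54.8 and 51.7 CPM against 15.8, 25.8 and 27.3 CPM, a log2 fold change of -1.11 (SE 0.20, adjusted p = 0.00327 by edgeR). In both, PTEC DN RAR replicate 1 stood below the other PTEC DN RAR libraries.

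**Figure D2:**
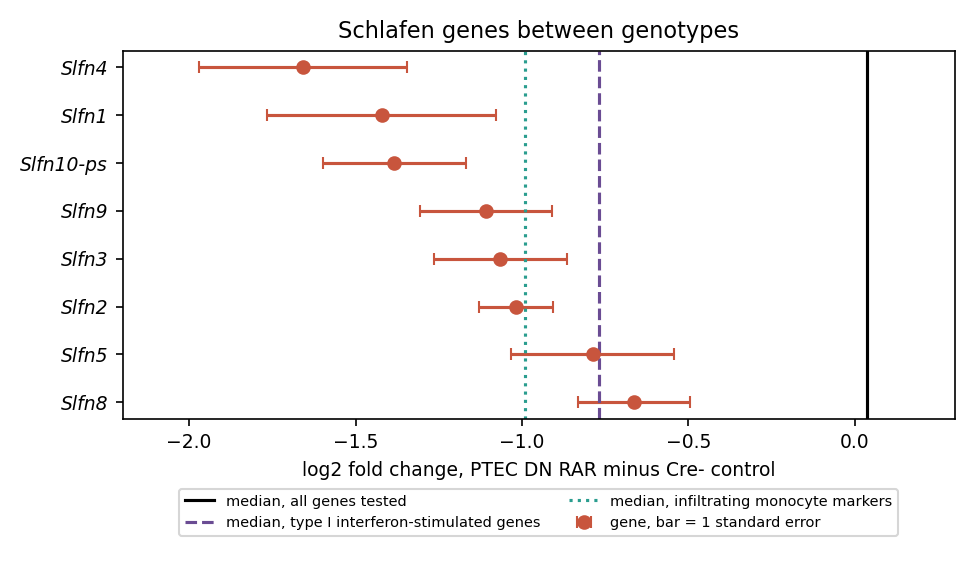
Log2 fold change (PTEC DN RAR minus Cre- control) of the 7 members and Slfn10-ps, with bars of 1 standard error, beside the medians of all genes tested (0.04), of 26 type I interferon-stimulated genes (-0.77) and of 8 infiltrating monocyte markers (-0.99). The genes run from -1.66 for Slfn4 to -0.66 for Slfn8, all below the median of all genes.

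The other Schlafen genes in the table were rare. The pseudogene Slfn10-ps (ENSMUSG00000072621) measured 4.51, 6.07 and 6.02 CPM in Cre- controls and 1.82, 1.96 and 2.56 CPM in PTEC DN RAR mice, again without overlap (log2 fold change -1.38, SE 0.21, adjusted p = 0.00178 by edgeR). Slfn14, a ribosome-associated endonuclease of platelets and erythroid precursors, had 1 count over the 6 libraries. Slfnl1, a Schlafen-like gene on chromosome 4, had 3 counts, all in Cre- control replicate 2. Slfn5os, which overlaps Slfn5 on the opposite strand, had at most 2 counts in a library. Slfn14 was therefore not detectable at this depth in 5 of 6 libraries. Of 6 platelet markers, Gp9 and Gp1bb were under the filter on low counts. Of the 4 tested, Pf4 and Ppbp were lower (log2 fold changes of -3.10 and -4.35), where 17.1% of all genes were. Itgb3 was higher (0.72), where 23.6% of all genes were, and Itga2b was not called.

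Levels were compared between members per kilobase of exon, the union of all annotated exons of a gene. In Cre- controls the order on this scale was Slfn2 with 218 ± 24.5 CPM per kb (SD, n = 3), Slfn1 with 61.2 ± 17.5, Slfn5 with 51.7 ± 6.15, Slfn8 with 21.8 ± 1.15, Slfn4 with 12.5 ± 3.62, Slfn9 with 8.32 ± 1.09 and Slfn3 with 1.31 ± 0.0391. Slfn1 and Slfn5 overlapped, and the others were separate from their neighbors in this order, by a small margin between Slfn4 (lowest 9.49) and Slfn9 (highest 9.19). In PTEC DN RAR mice Slfn2 was still first with 108 ± 9.65 CPM per kb (SD, n = 3) and Slfn3 last with 0.624 ± 0.120. There Slfn5 (29.9 ± 10.9), Slfn1 (22.8 ± 11.9) and Slfn8 (13.8 ± 3.43) overlapped in turn, as did Slfn4 (3.94 ± 1.71) and Slfn9 (3.85 ± 1.05).

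Ratios between members within a library do not depend on how libraries are scaled. Of 21 pairs 5 had ratios that did not overlap between genotypes, a count with no share over other gene pairs beside it, from which nothing particular to the family is read. The log2 ratio of Slfn4 to Slfn8 was -1.22, -0.53 and -0.92 in Cre- controls against -2.08, -2.15 and -1.50 in PTEC DN RAR mice, a difference of -1.02. That of Slfn4 to Slfn5 differed by -0.86 and that of Slfn4 to Slfn9 by -0.57. The log2 ratio of Slfn1 to Slfn5 differed by -0.66, and that of Slfn8 to its paralog Slfn9 by 0.45, from 1.05, 0.79 and 0.73 to 1.34, 1.31 and 1.25. For each of these 5 the exact permutation test (two-sided) gave p = 0.1, which no comparison of 3 mice with 3 can go below, and an adjusted p of 0.42 over the 21 pairs. As a share of the counts of the 7 members, Slfn8 went from 9.01% ± 0.906 to 11.1% ± 1.06 (SD, n = 3 each) without overlap. The share of Slfn2 was 36.4% ± 1.77 and 36.5% ± 7.42 (SD, n = 3 each), where the second mean covers 44.97%, 33.1% and 31.3%, and the difference of 0.058 points became -4.19 without PTEC DN RAR replicate 1 and 2.62 without replicate 3. The shares of the 6 members other than Slfn8 overlapped.

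**Figure D3:**
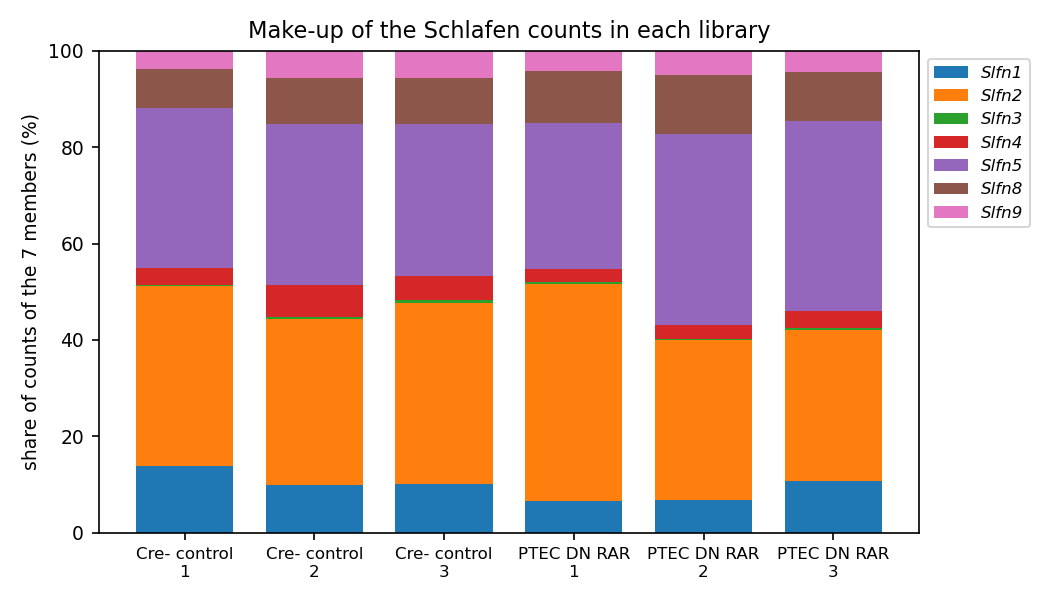
Share of each member in the summed counts of the 7 Schlafen members (%), 1 bar per library. Slfn2 and Slfn5 make up most of every bar, and the Slfn8 segment is between 10.3% and 12.3% in PTEC DN RAR libraries and between 7.97% and 9.62% in Cre- controls.

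Libraries within the PTEC DN RAR group differed in a common way. Replicate 1 was the lowest of the 3 in 6 of 7 members, all but Slfn3, and replicate 3 was the highest in all 7. The mean log2 CPM of 26 type I interferon-stimulated genes was also lowest in PTEC DN RAR replicate 1, at 5.25, against 6.04 and 6.28 in replicates 2 and 3 and 6.93, 6.67 and 6.34 in the Cre- controls. That of 8 infiltrating monocyte markers had the same order within the PTEC DN RAR group, at 6.39, 6.60 and 6.85, against 7.85, 7.90 and 7.81 in the Cre- controls, and its part in the replicate order was not tested. Among Cre- controls no library stood out in the same way, with replicate 1 highest in 3 members and replicate 2 in 4.

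Genes around the cluster were called in both directions. The window reaching 300 kb beyond the outer members held 40 genes, of which 24 were tested, and 16 of those were not Schlafen genes. Of these 16, 3 were lower (17.1% of all genes were), 2 were higher (23.6% of all genes) and 11 were not called, with a median log2 fold change of 0.00 against 0.04 over all genes. The nearest tested gene before Slfn5, Unc45b, was rare and higher in PTEC DN RAR mice, with 0.410, 0.738 and 0.348 CPM against 1.10, 1.67 and 1.55 CPM (log2 fold change 1.54, SE 0.36, adjusted p = 0.0102 by edgeR). The nearest gene after Slfn3, the noncoding AI662270, measured 103, 105 and 110 CPM in Cre- controls and 66.5, 64.5 and 64.3 CPM in PTEC DN RAR mice (log2 fold change -0.70, SE 0.07, adjusted p = 0.000387 by edgeR). The pseudogene Gm11427, which shares sequence with Slfn3 and Slfn4, overlaps that position and also fell, with a log2 fold change of -0.70 and an adjusted p of 0.0257 by edgeR. The remaining lower gene, Zfp830, lies on the far side of Slfn5 and fell by 0.43.

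**Figure D4:**
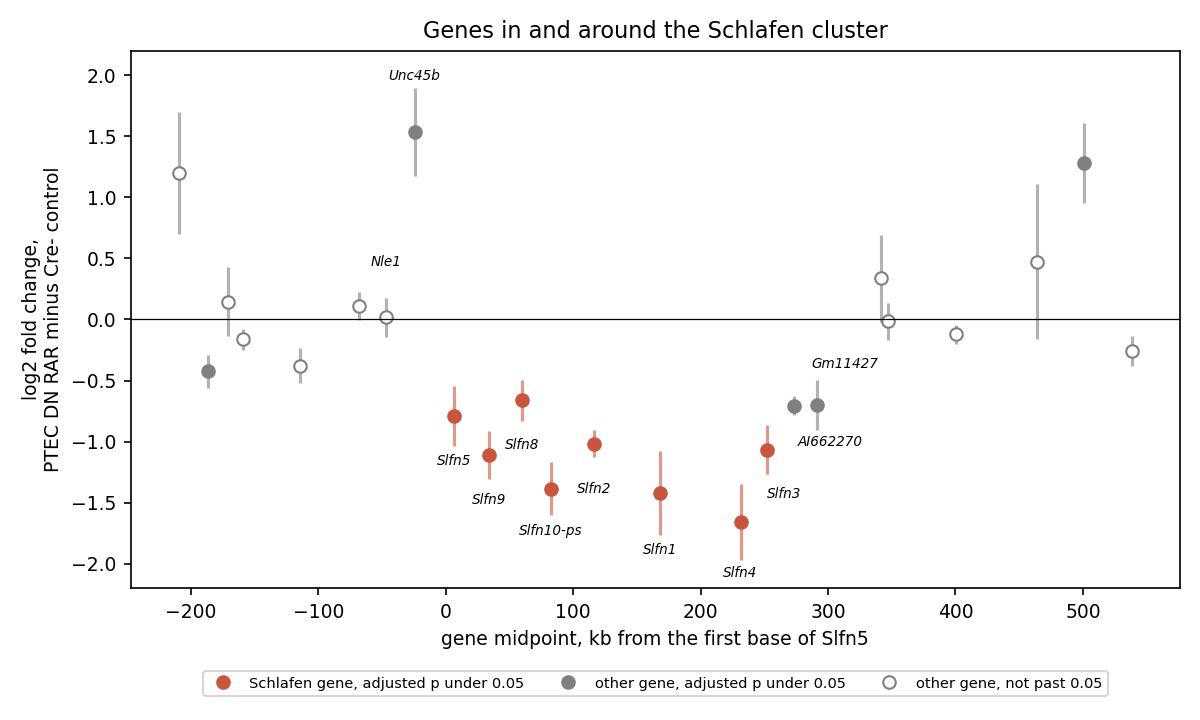
Log2 fold change (PTEC DN RAR minus Cre- control) with bars of 1 standard error for the 24 tested genes of the window, against the distance of the gene's midpoint from the first base of Slfn5 in kb. Schlafen genes are red and other genes grey, filled where the adjusted p is under 0.05, and the 8 red points lie together below zero with AI662270 and Gm11427 directly beside them.

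Paralogs of this kind share sequence, and reads that aligned to more than 1 place were left out of the counts. In the transcripts of GENCODE M21, 16.0% of the distinct 50-base stretches of Slfn3 were also found in another gene, 14.6% of those of Slfn8, 11.9% of Slfn9, 11.3% of Slfn4, 11.1% of Slfn5, 4.27% of Slfn2 and 0.606% of Slfn1. For Slfn8 the partners were Slfn10-ps and Slfn9 alone, and for Slfn4 the partner that shared most was Slfn3. Of the 75-base stretches of Slfn3 127 were found in Gm11427, as were 54 of those of Slfn4, more than in any other gene. For Slfn5 the partner was mostly the antisense gene Slfn5os, with 467 of 700 stretches, and none of the 50-base stretches of Slfn5 was found in another Schlafen gene of the cluster on either strand apart from Slfn5os. Slfn5os overlaps Slfn5 at the same place in the genome, so the number of reads counted for Slfn5 there depends on the strand setting of the counting, which is not given in the sources used here. With stretches of 100 bases the share was 6.40% for Slfn5, where 388 of the stretches were from Slfn5os. It was 3.71% for Slfn9, 3.38% for Slfn8, 2.92% for Slfn3, 0.271% for Slfn4, 0.128% for Slfn2 and 0 for Slfn1. Read length is not given in the sources used here, and copies outside annotated transcripts were not analysed here. The levels of Slfn3, Slfn4, Slfn5, Slfn8, Slfn9 and Slfn10-ps are uncertain to that extent.

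Genes of the interferon pathway were counted from lists that cover its receptor, its transducers and its targets, beside 17.1% of all genes called lower and 23.6% called higher. Of 26 type I interferon-stimulated genes, 16 passed the test as lower and 0 as higher, with 10 not called, a median log2 fold change of -0.77 and a range from -1.18 to -0.13. The lowest past the test were Oasl2, an oligoadenylate synthetase-like protein, and Isg15, a ubiquitin-like modifier, both at -1.18, and the least changed past the test were Oas1a at -0.67 and the RNA sensor gene Ifih1 at -0.57. Of the 7 genes for the interferon receptor and its transducers 3 were lower and 0 higher. These were Irf9 (log2 fold change -0.41), Stat2 (-0.61) and Jak1 (-0.27), while the receptor genes Ifnar1 (0.04) and Ifnar2 (-0.11) were not called. Of 6 interferon regulatory factors 1 was lower, Irf2 (-0.26), a share close to that over all genes. Irf7, itself an interferon-stimulated gene, had a log2 fold change of -0.42 with an adjusted p of 0.286 by edgeR.

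Relative to the mean of the stimulated genes in the same library, Slfn2, Slfn3, Slfn5, Slfn8 and Slfn9 overlapped between genotypes, while Slfn1 and Slfn4 did not. The difference in log2 CPM between Slfn5 and that mean was 1.58, 1.69 and 1.83 in Cre- controls against 1.58, 1.65 and 1.67 in PTEC DN RAR mice. That of Slfn8 was higher by 0.09 in PTEC DN RAR mice. Slfn2, Slfn3 and Slfn9 differed by -0.23, -0.28 and -0.35 on this scale (PTEC DN RAR minus Cre- control), with overlap in each. For Slfn4 it was -1.70, -0.64 and -0.83 in Cre- controls against -1.99, -2.18 and -1.76 in PTEC DN RAR mice, and for Slfn1 0.31, -0.05 and 0.19 against -0.62, -0.89 and -0.21. Slfn1 and Slfn4 were the 2 members whose PTEC DN RAR libraries all lay under the controls on this scale (exact permutation test, two-sided, p = 0.1 for each, the smallest possible), as held for 0.427% of all genes.

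Markers of infiltrating monocytes moved with the members. Of 8 such markers 7 were lower (17.1% of all genes were), the exception being Ly6c2 (log2 fold change -0.90, adjusted p = 0.0824 by edgeR), with a median of -0.99. Their summed level was between 3812 and 4113 CPM in Cre- controls and between 1611 and 1673 CPM in PTEC DN RAR mice, and no marker was at 0. Relative to the mean log2 CPM of these markers in the same library, 0 of 7 members were below the controls in every PTEC DN RAR library, as were 0.22% of all genes. Slfn8 was above them in each (-1.40, -1.33 and -1.39 against -1.06, -0.59 and -0.83), as were 92.6% of all genes. Slfn2 on this scale was at 0.83, 0.50 and 0.60 in Cre- controls against 1.01, 0.83 and 0.78 in PTEC DN RAR mice, a difference of 0.23 with overlap. Slfn4 lay lower by 0.47 and Slfn1 by 0.27, with overlap in both, and these were the 2 members with a lower mean. Slfn3, Slfn5 and Slfn9 lay higher by 0.175, 0.39 and 0.10, with overlap in each. The mean log2 CPM of the markers, the reference on this scale, was 7.85, 7.90 and 7.81 in Cre- controls. In PTEC DN RAR mice it was 6.39, 6.60 and 6.85.

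**Figure D5:**
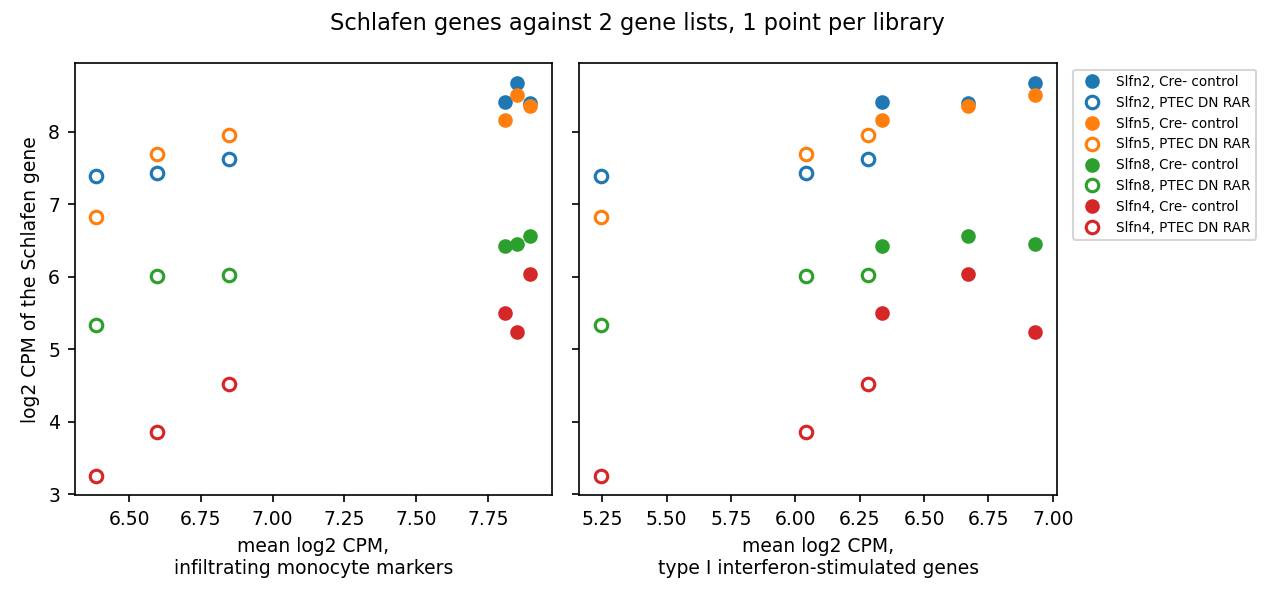
Log2 CPM of Slfn2, Slfn5, Slfn8 and Slfn4 (vertical axis) against the mean log2 CPM of 8 infiltrating monocyte markers (left) and of 26 type I interferon-stimulated genes (right), 1 point per library, filled for Cre- controls and open for PTEC DN RAR mice. The monocyte axis separates the genotypes, from 6.39 to 6.85 and from 7.81 to 7.90, and the interferon axis places PTEC DN RAR replicate 3 (6.28) next to Cre- control replicate 3 (6.34).

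Other cell types were measured in the same way. Markers of resident macrophages, the most abundant list, held summed levels of 16320 to 21440 CPM in Cre- controls and 17920 to 22980 CPM in PTEC DN RAR mice, with 2 of 8 lower and 1 higher. Relative to their mean all 7 members were below the controls in every PTEC DN RAR library, against 16.5% of all genes. Relative to the mean of the pan-leukocyte reference genes 6 of 7 were, against 9.23% of all genes, the exception being Slfn5 (-0.02, -0.18 and -0.32 against -1.61, -0.66 and -0.25). The reference genes themselves were lower in 8 of 25 tested and higher in 0 by edgeR, with a median log2 fold change of -0.20. Of 10 neutrophil markers 6 were lower (17.1% of all genes were), with summed levels of 566 to 914 CPM in Cre- controls and 334 to 470 CPM in PTEC DN RAR mice. All 12 proximal tubule markers were higher (23.6% of all genes were), at summed levels of 581 to 807 CPM against 2170 to 3318 CPM. So were all 5 thick ascending limb markers, at 1027 to 1447 CPM against 3574 to 6938 CPM, and all 7 endothelial markers, at 74.6 to 107.9 CPM against 209.5 to 253.9 CPM. Of 5 B cell markers tested 2 were higher, at 401.1 to 507.2 CPM over the list against 502.5 to 760.3 CPM, and of 6 dendritic cell markers 2 were higher and 1 lower. The 4 NK cell markers tested had log2 fold changes from -1.12 to -0.16 and did not pass. The part that these shifts in cell content have in the Schlafen levels was not tested beyond the scaling on pan-leukocyte reference genes, under which 5 of 7 members passed the test.

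Genes with the most similar profile were sought among 8992 genes with a mean of at least 10 CPM, by the root mean square difference in centered log2 CPM over the 6 libraries. For Slfn8 they were Gbp9 (0.03), Parp14 (0.07) and Trim12c (0.08), and for Slfn5 Herc6 (0.08), Rsad2 (0.10) and Mndal (0.10). For Slfn9 they were Gbp7 (0.11), Trim30b (0.15) and Gm5431 (0.17). The genes nearest to Slfn1 were Hpse (0.19), Ms4a4c (0.20) and Isg15 (0.20). Slfn2 was closest to Dusp1 (0.06), Arhgap10 (0.06) and Cd200r1 (0.10), and Slfn3 to Nufip1 (0.07), Mefv (0.08) and Cdkn1a (0.08). The chemokine gene Ccl2 (0.35), Gm5431 (0.36) and the monocyte marker Vcan (0.36) were nearest to Slfn4, at a greater distance than for any other member. Parp14, Herc6, Rsad2 and Isg15 are also on the list of interferon-stimulated genes. No gene named here for Slfn2, Slfn3, Slfn4 or Slfn9 is on that list. The distance includes the difference between genotypes, so genes with a similar log2 fold change lie near each other. Since these listed genes also fell in the same libraries, shared regulation is not read from their nearness and was not tested.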

How the data were processed

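CD11B+ cells were isolated with magnetic beads and sequenced as polyA RNA, with each library taken as 1 mouse. The authors deposited raw read counts per Ensembl gene. The submitters' processing notes name STAR 2.5.0a, HTSeq 0.6.1, edgeR, limma and GRCm38, and the strand setting is not given in the sources used here. Of 46612 gene lines, 9 repeats were collapsed, leaving 46603 genes. Reads aligned to more than 1 place (42.9% to 47.8% of all lines per library) and summary lines were left out. Coordinates and exon lengths are from GENCODE M21.

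Libraries were grouped by label. After filterByExpr and TMM scaling, counts went into edgeR 4.0.16 (glmQLFit and glmQLFTest, R 4.3.3). P-values were adjusted by Benjamini-Hochberg over 15440 genes, with a threshold of 0.05. A standard error is the size of the log2 fold change divided by the square root of F. Mean log2 CPM and ratios to marker lists use a prior count. Single values were compared by two-sided exact permutation tests (scipy 1.17.1). Alternatives used limma 3.58.1 (voom) and DESeq2 1.42.0, other scalings and filters, a replicate block, and leaving out each library. The fit was tested on simulated data. Libraries of the same genotype differed beyond sampling noise (chi-square over its degrees of freedom 27.1 or more), and each was taken as a sample. The members and lists were chosen with earlier results of these data known. Named genes are the 7 members, other Schlafen genes, direct neighbors of the cluster, the 3 genes nearest in profile to each member, and interferon genes past the test or with the 2 lowest and 2 highest log2 fold changes among stimulated genes past it. Zfp830, Gm11427, Ifnar1, Ifnar2, Irf7, platelet markers, Ly6c2, T cell markers, Itgam and Rara were named after their values were seen.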

Additional observations from a re-analysis of the deposited data

How the results depend on the processing

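The 7 members kept a negative log2 fold change under all 14 alternatives, and Slfn1, Slfn2, Slfn3, Slfn4 and Slfn9 passed the test in each. Scaling on pan-leukocyte reference genes lowered the number of genes called lower to 804, and under it Slfn5 (-0.57, adjusted p = 0.12 by edgeR) and Slfn8 (-0.46, adjusted p = 0.0927 by edgeR) no longer passed, which leaves 5 members. With each library left out, the log2 fold change of Slfn5 ran from -1.07 to -0.53, and 3 of the 6 fits called it. DESeq2, limma voom, other size factors, library size alone, the unfiltered table and genes with 10 or more counts in all libraries each gave 7 calls. The replicate numbers of the labels join different animals, with correlations of -0.0147, 0.211 and 0.0286 between same-numbered libraries, and 2 of 6 libraries correlated best with their own number. With the replicate number as a block 2606 genes were lower and 3612 higher, and all 7 members passed. Slfn3 and Slfn10-ps rest on 76 to 190 counts per library, and Slfn14 and Slfnl1 were too rare to test.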
